A study of Mus musculus with 4 samples.

Results

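The S100 genes examined here were S100a1, S100a4, S100a6, S100a8, S100a9, S100a10, S100a11 and S100a13, 8 of the 32285 genes in the count tables, taken by symbol. Single-cell RNA sequencing had been applied to CD45+ leukocytes of the lamina propria, pulled out of digested colons on magnetic beads, from mice with colitis induced by dextran sulfate sodium (DSS), a polymer that injures the colonic epithelium. The labels number 4 samples and give all of them DSS treatment and an age of 10 weeks. The series title names WT and AhR-deficient mice, but the labels put no sample in a genotype, so each sample was read on its own and no genotypes were compared. Each sample was a mixture of colons from several mice of the same group, so the spread between mice within a sample was not measured.

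S100 proteins are small calcium-binding proteins with a pair of EF-hand motifs that mostly work as dimers. S100A8 and S100A9 pair to form calprotectin, which binds zinc and manganese, makes up much of the cytosolic protein of neutrophils and is measured in stool as a marker of intestinal inflammation. S100A10 binds annexin A2 at membranes, S100A11 binds annexin A1, S100A4 binds non-muscle myosin and is found in motile cells, S100A6 is also known as calcyclin, S100A13 takes part in the release of growth factors that lack a signal peptide, and S100A1 regulates calcium handling in muscle.

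The 8 genes lie on mouse chromosome 3 (GRCm38, GENCODE M21). S100a1 (chr3:90511034-90514392, minus strand), S100a13 (chr3:90514435-90524581), S100a4 (chr3:90603771-90606045), S100a6 (chr3:90612882-90624181), S100a8 (chr3:90668978-90670035) and S100a9 (chr3:90692632-90695721, minus strand) share a stretch of 184.7 kb. S100a11 (chr3:93520488-93526287) and S100a10 (chr3:93555080-93564643) lie 2.82 Mb further on, and genes without a stated strand are on the plus strand. S100a8 and S100a9 are neighbours 22.6 kb apart, and S100a1 and S100a13 are transcribed away from each other with 42 bases between their annotated starts. An S100a11 processed pseudogene is annotated on chromosome 12 (chr12:73961142-73961447), so reads of S100a11 may have been shared with it or discarded, and its level is uncertain to that extent.

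Promoter windows from RefSeq (GRCm38.p6) were found for 7 of the 8 genes, all but S100a10. Over classes, S100a8 and S100a9 were each most like the other, and S100a4 had a pattern unlike theirs. The stretches below precede the RefSeq starts of S100a8, S100a9 and S100a4 or lie between S100a1 and S100a13. Each reads 5′ to 3′ on the named gene's strand, with TATAAA in capitals. The S100a8 stretch is cut to 30 bases around the motif because a GENCODE exon covers that position. This stretch precedes the RefSeq start of S100a8 but lies downstream of the GENCODE start given above.
S100a8, chr3:90669029-90669058, plus strand: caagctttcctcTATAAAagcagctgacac
S100a9, chr3:90695722-90695821, minus strand: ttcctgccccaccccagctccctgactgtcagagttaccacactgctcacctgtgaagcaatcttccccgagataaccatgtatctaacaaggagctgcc
S100a4, chr3:90603670-90603769, plus strand: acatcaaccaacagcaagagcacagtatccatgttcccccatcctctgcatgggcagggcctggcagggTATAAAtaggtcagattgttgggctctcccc
S100a13, chr3:90514393-90514434, plus strand: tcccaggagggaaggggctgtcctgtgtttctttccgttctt
In the 250 bases upstream of the RefSeq starts, TATAAA occurred on the gene's strand in 2 of the 7 windows, S100a4 and S100a8, where it began 31 and 30 bases before the start. It occurred on the opposite strand in 0 of the 7. Of all 32851 windows in the table, 7.59% held TATAAA on the gene's strand and 6.26% on the opposite strand. The S100a8 and S100a9 windows therefore differed in this motif.

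Samples 1 to 4 held 11425, 13730, 11581 and 8493 barcodes with 113806334, 135516016, 101579112 and 72509408 unique molecular identifiers (UMIs), each of which marks a captured transcript molecule. After filters on detected genes and mitochondrial UMIs, 43432 of 45229 barcodes remained, and marker genes placed 26668 of them in 24 cell classes. Classes are named by the marker list that the cells carry and are meant as neutrophil-like, monocyte-like and so on. A further 7996 cells carried markers of unlike lineages and 8768 carried too few, and both were left out. A class was read in a sample where it had at least 50 cells there, which 17 classes did in all 4 samples. Libraries shared 0.271% to 0.423% of the smaller library's barcodes. Although the cells had been selected for CD45, 782 fibroblast, 356 epithelial and 199 endothelial cells were found. Innate lymphoid gates still held T cell transcript. Cd3e (a T cell receptor subunit) stood at 131 to 204 CPM (the gene's UMIs relative to all UMIs of the class) in ILC3, at 42.7 to 92.5 CPM in ILC2 and at 28.3 to 257 CPM in NK cells and ILC1. It stood at 185 to 241 CPM in regulatory T cells and at 3.57 to 24.8 CPM in B cells. The ranges of ILC3 and of NK cells and ILC1 thus overlapped that of regulatory T cells. Levels below are CPM of the UMIs summed over a class in a sample, and 95% intervals are exact Poisson intervals that cover counting error only.

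S100a8 and S100a9 were by far most abundant in neutrophils. In mature neutrophils S100a8 stood at 62658, 49004, 45433 and 55921 CPM in samples 1 to 4, and S100a9 at 74509, 58208, 47598 and 53699 CPM. In immature neutrophils, which carry the granule genes Ngp, Camp and Ltf, S100a8 stood at 85569, 71687, 63870 and 68912 CPM and S100a9 at 91725, 77018, 60250 and 60902 CPM. Immature exceeded mature neutrophils in 4 of 4 samples for both genes. For S100a8 the ranges over samples did not overlap, and for S100a9 they did. S100a8 and S100a9 together made up 9.30% to 13.7% of all UMIs of mature and 12.4% to 17.7% of all UMIs of immature neutrophils. Single mature neutrophils varied widely around this, with a 10th percentile of 2.14% to 3.47% and a 90th percentile of 17.7% to 22.5% of a cell's UMIs across the samples.

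S100a6 and S100a11 shared the neutrophil peak at lower levels. S100a6 stood at 10161, 6856, 6942 and 9319 CPM in immature neutrophils and at 8054, 6157, 4962 and 7969 CPM in mature neutrophils of samples 1 to 4. It was again higher in immature cells in 4 of 4 samples, though the ranges overlapped. S100a11 stood at 3522, 3747, 2169 and 1993 CPM in mature and at 3368, 3760, 2115 and 1855 CPM in immature neutrophils. Samples 1 and 2 were above samples 3 and 4 in both classes, and the intervals of the 2 classes overlapped in samples 2 and 3. In mature neutrophils S100a4 stood at 34.4 to 102 CPM, S100a10 at 37.3 to 96.8 CPM and S100a13 at 44.1 to 58.5 CPM.

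**Figure D1:**
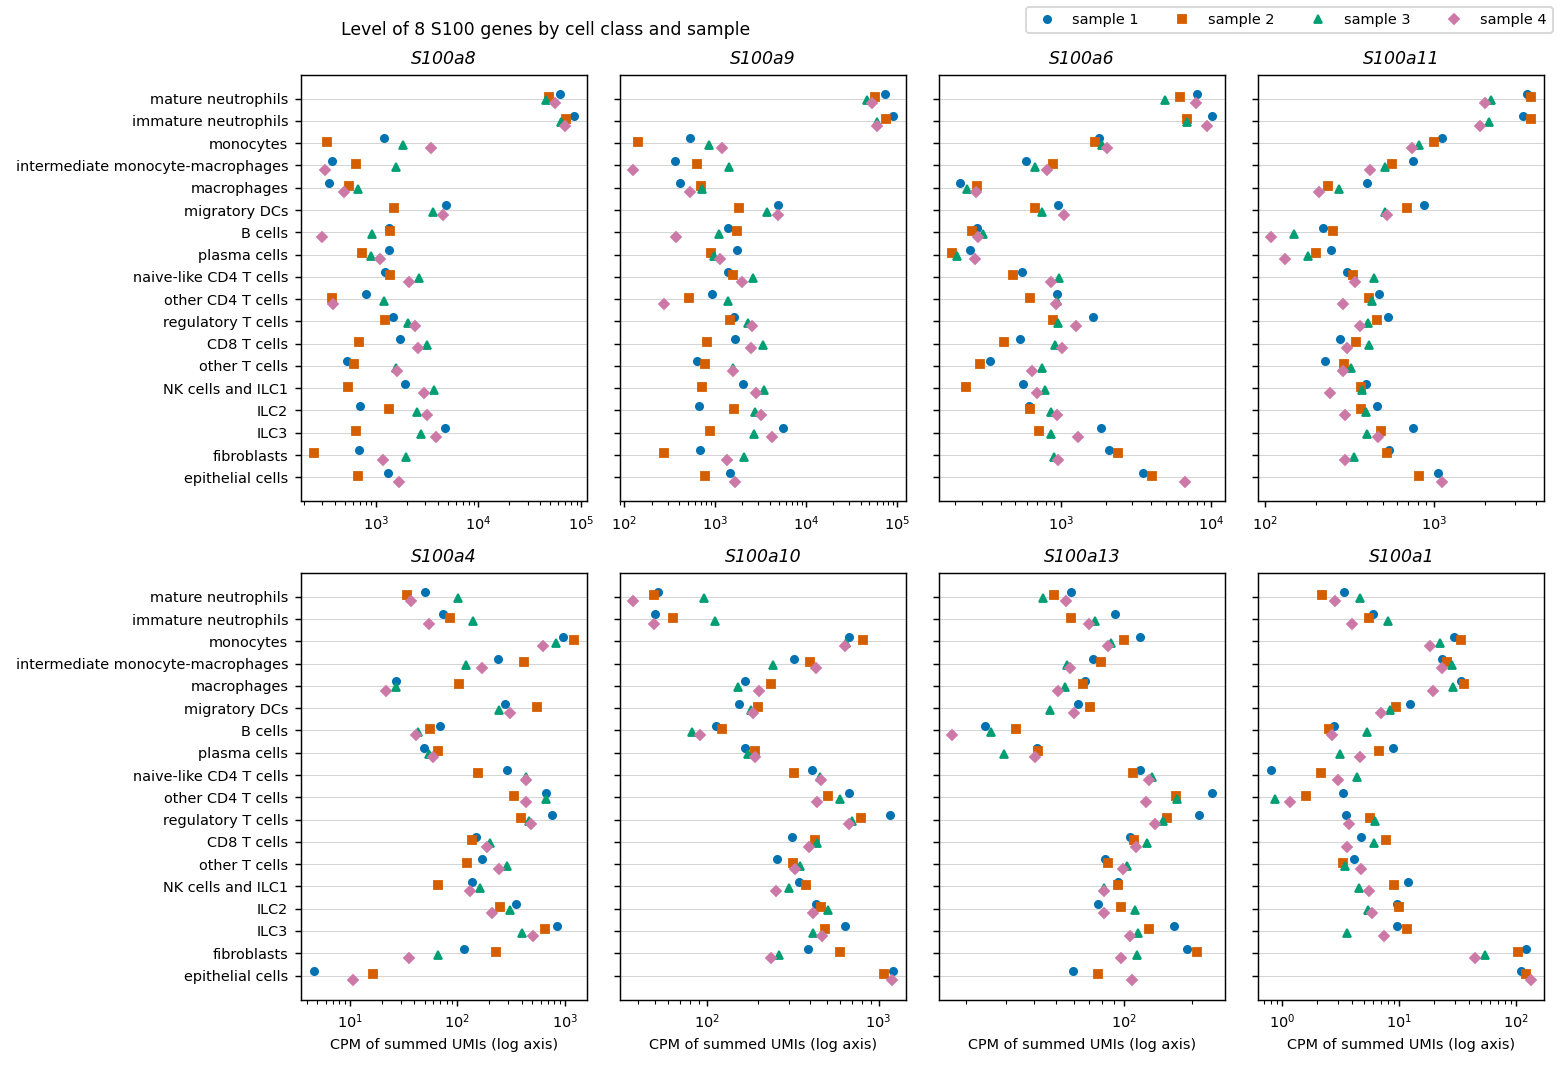
Level of each of the 8 S100 genes (CPM of summed UMIs, log axis) in the 18 cell classes read in at least 3 samples, with a point per sample. S100a8, S100a9, S100a6 and S100a11 peak in the 2 neutrophil classes, S100a4 in monocytes, and S100a1 in epithelial cells and fibroblasts.

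The class with the highest level was the same in every sample for 4 of the 8 genes, and the share of all genes for which this held was not counted. The 4 S100 genes were S100a6, S100a8 and S100a9, in immature neutrophils, and S100a4, in monocytes. S100a11 was highest in mature neutrophils in 3 samples and in immature neutrophils in the other, sample 2. S100a10 was highest in epithelial cells in samples 1, 2 and 4, with an interval overlapping that of regulatory T cells in sample 1, and in regulatory T cells in sample 3, where epithelial cells were too few to read. S100a1 peaked in fibroblasts or epithelial cells, and S100a13 in other CD4 T cells, fibroblasts or endothelial cells, depending in part on which of these classes a sample held.

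Set against monocytes of the same sample, neutrophils had 4 S100 genes at least 2-fold higher and 3 at least 2-fold lower in all 4 samples. Of all 6611 genes with 10 CPM or more in either class, 7.58% were at least 2-fold higher and 23.9% at least 2-fold lower by the same rule. S100a8 was 18.1-fold to 158-fold and S100a9 47.8-fold to 428-fold higher in neutrophils. S100a6 was 2.89-fold to 5.02-fold and S100a11 2.61-fold to 3.76-fold higher. S100a4 was 7.5-fold to 28.7-fold lower, S100a10 6.44-fold to 15.6-fold lower and S100a1 4.16-fold to 12.5-fold lower. S100a13 was at 0.509 to 0.731 of its monocyte level and was not called. The median log2 ratio of neutrophils to monocytes over all tested genes, with 1 CPM added, was -0.46. The typical gene thus also stood lower in neutrophils. The widest spreads, of S100a8 and S100a9, came from the monocytes, since the level of S100a8 in mature neutrophils differed only 1.38-fold between samples and that in monocytes 10.3-fold.

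In monocytes S100a8 exceeded S100a9, although neither was high in the sum of the class beside other classes. S100a8 stood at 1208, 334, 1831 and 3445 CPM in monocytes of samples 1 to 4 and S100a9 at 536, 143, 866 and 1197 CPM, so that sample 2 was lowest and sample 4 highest for both. Summed S100a8 was higher than in monocytes in migratory dendritic cells, at 1520 to 4802 CPM, and in ILC3, at 647 to 4675 CPM, in 4 of 4 samples. B cells had 1332, 1376, 914 and 297 CPM of S100a8, above monocytes in samples 1 and 2, and 1400, 1733, 1099 and 367 CPM of S100a9, above monocytes in samples 1 to 3. The monocytes held 2.25, 2.33, 2.11 and 2.88 S100a8 UMIs per S100a9 UMI, with a 95% interval of 2.02 to 2.69 in sample 2, where counts were fewest. In neutrophils of the same samples the ratio was 0.891, 0.860, 0.984 and 1.09. In macrophages it was 0.842, 0.799, 0.931 and 0.921. Intermediate cells, which scored alike for monocyte and macrophage markers, were at 1.03, 1.02, 1.11 and 2.57, so that in all intermediate cells sample 4 alone was above 1.5. The classes outside neutrophils and the monocyte-macrophage gates, dendritic cells included, lay between 0.726 and 1.06 in samples 1 to 3. In sample 4 they lay between 0.810 and 1.43, the highest value being that of other CD4 T cells. No class other than monocytes exceeded 1.5 in every sample it was read in.

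**Figure D2:**
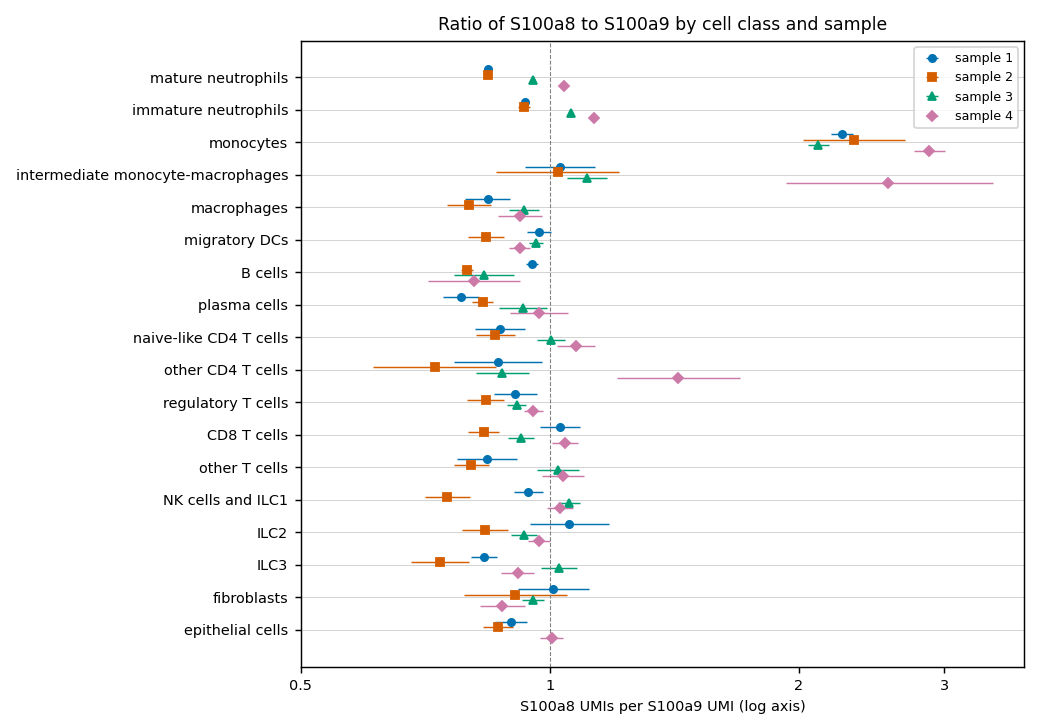
S100a8 UMIs per S100a9 UMI (log axis) by cell class and sample, with 95% exact intervals for counting error and a dashed line at 1. Monocytes lie between 2.11 and 2.88 in all 4 samples, above both neutrophil classes, which lie between 0.841 and 1.13.

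Neutrophil transcripts appeared in every class, and the S100a8 and S100a9 values of other classes were therefore set beside Retnlg, a neutrophil gene that was not used to place cells. In monocytes there were 0.0289 to 0.113 Retnlg UMIs per S100a8 UMI, and in neutrophils 0.190 to 0.311. Were all Retnlg of a class to come from neutrophil RNA, S100a8 from that source would amount to 13.4% to 36.3% of the S100a8 in monocytes, to 94.1% to 130% in macrophages, to 94.6% to 114% in epithelial cells and to 46.2% to 90.5% in B cells. Low shares were not limited to monocytes. In CD8 T cells the share was 28.6% to 93.9%, lowest in sample 1, where monocytes stood at 29.8%. In mast cells and basophils, read in sample 2 alone, it was 28.8%. For S100a9 in monocytes this share was 35.4% to 98.4%. For S100a4 in monocytes it was at most 0.160%, for S100a10 at most 0.186%, for S100a6 at most 3.48% and for S100a11 at most 3.16%. In macrophages, B cells and ILC2 the shares of S100a6 and S100a11 were larger. For S100a6 they were 22.2% to 35.7% in macrophages, 12.9% to 57.2% in B cells and 14.9% to 45.3% in ILC2. For S100a11 they were 5.27% to 15.7%, 7.44% to 34.9% and 7.69% to 32.5% in the same order. The ratios between classes given below were not corrected for this. Shares above 100% arise where Retnlg was higher relative to S100a8 than in the sample's neutrophils.

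As a share of its neutrophil level, S100a8 in monocytes stood above Retnlg, with intervals that did not overlap, in 4 of 4 samples, and S100a9 in 3 of 4, all but sample 2. Overlap of intervals was checked in the monocyte-macrophage gates alone. In B cells the amount expected from Retnlg was 46.2% to 90.5% of S100a8 and 39.0% to 90.3% of S100a9. Both thus stood above Retnlg there in every sample, so this was not particular to monocytes. Of the 8 neutrophil genes used for this comparison, S100a8 stood above 4, 2, 4 and 4 in samples 1 to 4 and S100a9 above 2, 0, 1 and 4. Neither stood above all 8 in any sample. In macrophages of sample 2, S100a9 stood above 5 of the 8. Slpi, which encodes a secreted protease inhibitor, was at 47.9% to 145% of its neutrophil level in monocytes. S100a8 also did not stand clear above Wfdc21, Lcn2 or Il1f9 in any sample. In the 60.5% to 79.1% of monocytes without a Retnlg UMI, the ratio of S100a8 to S100a9 was 2.51, 2.09, 5.74 and 4.37. Intermediate cells without a Retnlg UMI were at 1.07, 1.46, 3.90 and 2.76, so that in samples 3 and 4 they too were above 1.5. Macrophages without it were at 0.770 to 1.21, and the few such neutrophils, 2.17% to 11.7% of them, were at 0.425 to 0.713.

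The distribution over cells also differed between classes. Outside neutrophils and the monocyte-macrophage gates, the 5% of cells with most S100a8 and S100a9 UMIs held 53.5% to 94.0% of their class's S100a8 and S100a9 UMIs, against 11.97% to 18.1% in neutrophils, 45.2% to 56.5% in monocytes, 29.7% to 87.0% in intermediate cells and 52.8% to 84.4% in macrophages. The sums of the classes outside neutrophils and the monocyte-macrophage gates therefore rest on few cells. Those of macrophages do so too in samples 2 to 4, at 76.7% to 84.4%, and those of intermediate cells in samples 2 and 3, at 87.0% and 77.4%. The sums of monocytes do so in part. In sample 3 the share was 56.5% in monocytes and 53.5% in regulatory T cells. Whether these few cells were cell pairs was not tested. The median cell is less affected by such cells. In monocytes its S100a8 and S100a9 summed to 553, 243, 714 and 926 CPM in samples 1 to 4. In every sample this was above each of the 12 to 14 classes read outside neutrophils, the monocyte-macrophage gates and dendritic cells. The highest values of those classes were 367, 203, 334 and 237 CPM. Macrophages, at 403, 192, 345 and 255 CPM, were above all those classes in 3 of 4 samples. Type 1 conventional dendritic cells, read in samples 1 and 2, were at 417 and 226 CPM, above macrophages and below monocytes of the same samples. Neutrophils made up 13.6%, 4.41%, 20.7% and 18.3% of the kept cells in samples 1 to 4, so the sample with fewest neutrophils also had the lowest median monocyte. With 1000 UMIs drawn per cell, S100a8 was detected in 37.6%, 19.0%, 47.4% and 55.2% of monocytes and in 18.2%, 15.6%, 19.9% and 13.7% of B cells, a class known to lack it. At most 1 monocyte and 13 B cells in a sample had fewer UMIs and were left out. Undrawn, at medians of 6556 to 10026 UMIs in monocytes and 4680 to 5686 in B cells, the shares were 63.0% to 89.3% and 43.0% to 63.6%. S100a9 was detected in 12.2% to 24.9% of monocytes and 14.3% to 20.9% of B cells after drawing, so the ranges of these shares overlapped.

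**Figure D3:**
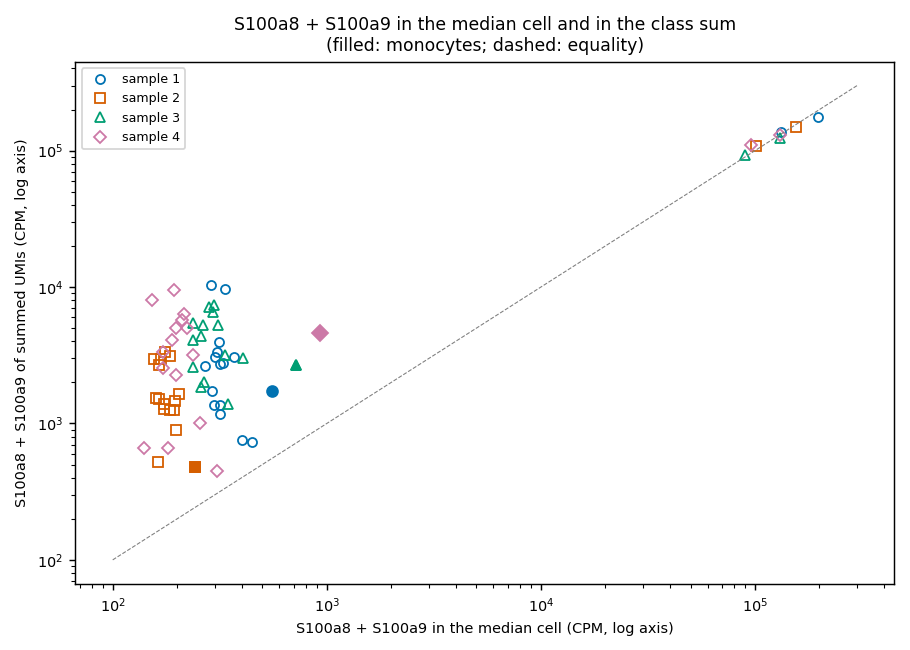
S100a8 plus S100a9 in the summed UMIs of each class (vertical, CPM, log axis) against the same genes in the median cell of the class (horizontal, CPM, log axis), with a point per class and sample, monocytes filled and a dashed line where both are equal. Neutrophils lie near the line at 89400 CPM or more, and the other classes lie above it, where few cells held much of the class's UMIs.

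S100a4, S100a6, S100a10 and S100a11 were highest in monocytes, lower in intermediate cells and lowest in macrophages in each of the 4 samples. All 4 were at least 2-fold higher in monocytes than in macrophages in 4 of 4 samples and 0 of the 8 S100 genes were lower, where 1.55% of all 6909 genes tested were higher and 2.85% lower. S100a4 stood at 960, 1230, 833 and 634 CPM in monocytes, at 242, 415, 120 and 170 CPM in intermediate cells and at 27.1, 105, 26.7 and 22.0 CPM in macrophages of samples 1 to 4. Its ratio of monocytes to macrophages was 35.4, 11.7, 31.2 and 28.8, lowest in sample 2, whose macrophages stood apart from the others. S100a6 stood at 1811, 1695, 1876 and 2018 CPM in monocytes and at 215, 279, 240 and 274 CPM in macrophages, a ratio of 6.08 to 8.42. S100a10 stood at 641 to 813 CPM in monocytes and 152 to 237 CPM in macrophages, a ratio of 3.17 to 4.26. S100a11 stood at 737 to 1119 CPM and 209 to 402 CPM, a ratio of 2.79 to 4.23. For each of these 4 genes the monocyte and macrophage ranges did not overlap, and the share of all genes with ranges apart was not counted.

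The other 4 S100 genes were not called between monocytes and macrophages. S100a13 was at most 1.76 times and S100a1 0.773 to 0.948 times as high in monocytes as in macrophages. S100a8 was at ratios of 3.47, 0.602, 2.71 and 7.08 and S100a9 at 1.30, 0.206, 1.20 and 2.27, so that both were lower in monocytes in sample 2 and higher in the others. Of the 12 listed binding partners and receptors of S100 proteins, 11 were tested and 1 was called, beside 1.55% of all genes higher and 2.85% lower. The gene called was Anxa2, which encodes the annexin that binds S100A10. Anxa2 was 3.19 to 4.42 times as high in monocytes, at 479 to 594 CPM against 108 to 181 CPM in macrophages. Of 5588 cells of the lineage, 488 lay within 0.1 of a score that parts these gates.

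**Figure D4:**
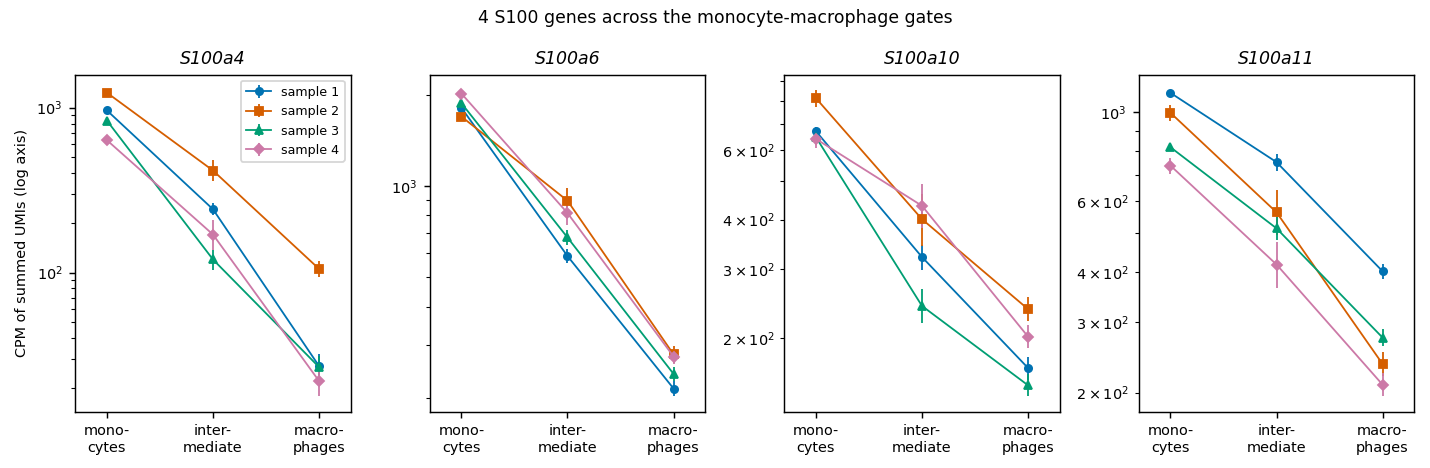
S100a4, S100a6, S100a10 and S100a11 (CPM of summed UMIs, log axis) in monocytes, intermediate cells and macrophages, with a line per sample and 95% exact Poisson intervals. All 16 lines fall from left to right, S100a4 by a ratio of 11.7 to 35.4 and the others by 2.79 to 8.42.

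Among T cells, S100a10 stood at 1173, 789, 697 and 673 CPM in regulatory T cells, at 441 to 677 CPM in other CD4 T cells and at 322 to 462 CPM in naive-like CD4 T cells, which carry Lef1 and Tcf7. S100a4 stood at 768, 396, 471 and 492 CPM in regulatory T cells and at 290, 155, 433 and 437 CPM in naive-like cells. In samples 1 and 2 it was 2.65 and 2.55 times as high in regulatory T cells, and in samples 3 and 4 1.09 and 1.13 times. Of the 7 S100 genes tested between these classes, 0 were at least 2-fold higher and 0 at least 2-fold lower in all 4 samples, and over all 7628 genes 0.734% were higher and 0.459% lower. S100a10 came nearest, at 2.86, 2.45, 1.53 and 1.46 times its naive-like level.

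Innate lymphoid cells of group 2 (ILC2), which make the type 2 cytokines Il5 and Il13, were set against B cells, a comparator chosen with earlier results known. S100a4, S100a6, S100a10 and S100a13 were at least 2-fold higher in ILC2 in 4 of 4 samples and 0 S100 genes were lower, where 7.75% of 7797 genes were higher and 4.6% lower. S100a4 was 4.49-fold to 7.30-fold higher, S100a10 3.75-fold to 6.17-fold, S100a13 2.90-fold to 4.70-fold and S100a6 2.23-fold to 3.39-fold. S100a11 was 1.47 to 2.74 times its B cell level and was not called. By median CPM over the 17 classes read in all samples, B cells ranked 15, 15, 15 and 17 for S100a4, S100a6, S100a10 and S100a13. ILC2 ranked 7, 9, 5 and 9 for the same genes. The comparator was thus among the lowest classes for these genes. The S100a10 level of ILC2, at 418 to 506 CPM, overlapped those of ILC3, CD8 T cells and naive-like CD4 T cells, while B cells, at 82.1 to 123 CPM, were below all of these. ILC3 had more S100a4 than ILC2 in 4 of 4 samples, at 850, 651, 405 and 505 CPM against 350, 252, 313 and 209 CPM, in a gate that also held more Cd3e.

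Stromal and epithelial cells had the highest S100a1, while several of their other S100 levels overlapped those of immune classes. Epithelial cells, read in 3 samples, had S100a10 at 1219, 1078 and 1194 CPM, S100a6 at 3528, 4025 and 6723 CPM and S100a1 at 110, 121 and 136 CPM in samples 1, 2 and 4, but S100a4 at only 4.65, 16.5 and 10.6 CPM. Epithelial S100a11, at 817 to 1107 CPM, was within the range of monocytes. Fibroblasts had S100a1 at 121, 105, 54.4 and 45.0 CPM in samples 1 to 4. Their S100a6, at 904 to 2421 CPM, overlapped that of monocytes, and their S100a10, at 238 to 594 CPM, that of CD8 T cells. In immune classes read in all samples S100a1 did not exceed 36.0 CPM, its level in macrophages of sample 2. Macrophages, monocytes and intermediate cells, at 18.3 to 36.0 CPM, lay above every lymphoid class, where S100a1 was at most 11.8 CPM. S100a13 was highest in endothelial cells, at 270 and 233 CPM in samples 3 and 4, and lowest in B cells, at 17.4 to 33.4 CPM. S100a1 and S100a13, whose starts are neighbours, had a Pearson r of 0.09 over 68 values of the 17 classes read in all 4 samples. Epithelial and endothelial cells are not among these classes, and the low counts of S100a1 in lymphoid classes limit this r. In endothelial cells, where S100a13 was highest, S100a1 stood at 45.0 and 52.7 CPM in samples 3 and 4. The 68 values share libraries and neutrophil RNA, and the correlations here are descriptions.

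By the same measure, on log2(CPM + 1) and among 7156 genes, S100a8 was most like S100a9 (r = 0.98), Retnlg (0.96) and Wfdc21 (0.95), and S100a9 was most like S100a8, Retnlg (0.98) and Chil1 (0.95). S100a6 was most like S100a11 (0.89), the membrane scaffold gene Flot2 (0.89) and the filamin gene Flna (0.88). S100a11 was most like Tspo (0.90), S100a6 and Prr13 (0.88). S100a4 was most like S100a10 (0.77), Crip1 (0.76) and Mdh2 (0.73). S100a10 was most like Atp5o, the galectin gene Lgals1 and Micos10 (each 0.87), and S100a13 most like Sept9 (0.82), Lgals1 (0.79) and Ech1 (0.78). S100a1 was most like Spon1 (0.89), Rnf217 (0.89) and Nupr1 (0.86). The genes thus fell into a neutrophil set of S100a8, S100a9, S100a6 and S100a11, with r of 0.71 to 0.98 within it, and a set of S100a4, S100a10 and S100a13, with r of 0.65 to 0.77, and S100a1 was outside both.

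Of the partners and receptors, Anxa1, the annexin that S100A11 binds, was 3.40-fold to 5.91-fold and Anxa11 3.04-fold to 4.11-fold higher in neutrophils than in monocytes. Ahnak, a scaffold protein that binds S100A10 with annexin A2, was 4.02-fold to 11.1-fold lower, as S100a10 was, while Anxa2 was at 1.02 to 1.40 times its monocyte level. Tlr4, a receptor for S100A8 and S100A9, was at 1.02 to 2.17 times its monocyte level in neutrophils and was not called. It stood at 97.0 to 126 CPM in mature neutrophils and 51.3 to 80.0 CPM in monocytes. Of the other listed genes, Bsg was 2.35-fold to 3.03-fold, Cd36 2.37-fold to 12.9-fold and Cacybp 2.65-fold to 3.61-fold lower in neutrophils. Ager, which encodes the receptor RAGE, did not exceed 2.78 CPM in the classes read in every sample. In all, 2 of the 11 partners and receptors tested were higher and 4 lower in neutrophils than in monocytes, beside 7.58% and 23.9% of all genes. Between regulatory and naive-like T cells 0 of 9 were called in either direction, beside 0.734% and 0.459% of all genes. Between ILC2 and B cells 3 of 11 were higher and 1 lower, beside 7.75% and 4.6% of all genes. Among 9 other S100-named genes, S100a14 and S100a16 were highest in epithelial cells, at 147 to 266 and 316 to 397 CPM, and S100a16 also had a median of 191 CPM in endothelial cells, read in 2 samples, and of 102 CPM in fibroblasts. S100pbp, which encodes a binding protein of S100P, was read in all classes, with a median of 48.6 CPM in B cells, and the other 6 genes did not exceed 13.2 CPM in the class of their highest median.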

How the data were processed

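Members and gene lists were chosen with earlier results of these data known. For each sample the authors deposited a matrix of UMI counts, which are not normalized. The file headers name Cell Ranger 7.0.1, while the submitters' processing notes name Cell Ranger 5.0.0, STAR, Seurat and mm10. Cells with at least 200 genes and under 20% mitochondrial UMIs were kept. Each cell's counts were brought to a total of 10000, and log values of the markers were turned into z-scores. A cell was placed in the lineage of highest mean score when this was at least 0.5 and at least 3 of its markers were detected. No lineage outside its family could exceed 0.5 of that score. Dendritic classes formed a family, B and plasma cells another, and T cells, NK cells and ILC1, ILC2 and ILC3 another. Cells that scored for both T cells and an innate lymphoid list were therefore not left out. These score limits were set after a first rule, which counted detected markers, had been seen to be unspecific. Monocytes and macrophages were parted by a score difference of 0.25. No doublet caller was run. Levels are CPM of summed UMIs, so fold changes carry no pseudocount. Of 9 neutrophil reference genes listed, 8 were in the files. A gene was called where its ratio was at least 2 in the same direction in all 4 samples, among genes at 10 CPM or more in either class. Cells are not replicates and the samples have no group, so no p-value was computed. Genes named are the 8 members, the listed S100 genes, partners, receptors and reference genes, and the 3 genes most like each member among those at 50 CPM or more. In a simulation, both groups were drawn from the macrophage profile of each sample, at the depths of monocytes and macrophages. Of 200 genes changed 4-fold in the group at monocyte depth, 200 were recovered by the 2-fold rule among 6737 tested. The changed genes had 50 CPM or more in every sample, and only counting error was simulated. The recovery therefore does not cover genes near 10 CPM, neutrophil RNA or cell pairs. The alternatives concerned cell filters, gates, scaling, fold and leaving out samples. Python 3.11.15, numpy 2.4.6, scipy 1.17.1, pandas 2.3.3 and matplotlib 3.10.9 were used.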

Additional observations from a re-analysis of the deposited data

Results flagged for a closer look

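In 5 of 136 combinations of an S100 gene and a class read in all 4 samples, a single sample lay far from the other 3 by Dixon's ratio. Chance alone flags about 1 in 20 such sets, and the samples may differ in genotype, so they need not be replicates. S100a4 in macrophages was 105 CPM in sample 2 and 22.0 to 27.1 CPM in the others. S100a10 in monocytes was 813 CPM in sample 2 and 641.1 to 670.5 CPM in the others. S100a6 in other CD4 T cells was 627 CPM in sample 2 and 936.4 to 949.5 CPM in the others. S100a13 in plasma cells was 29.5 CPM in sample 3 and 40.6 to 41.8 CPM in the others. S100a1 in B cells was 5.35 CPM in sample 3 and 2.53 to 2.75 CPM in the others.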

How the results depend on the processing

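Of 175 recomputed counts, 172 stayed within 1.5 times the reported count, and of 448 recomputed median ratios of single genes 424 moved by less than the spread between samples and 0 of those called changed sign. With a fold of 3, the S100 genes higher in neutrophils than in monocytes fell to 2, as did those higher in ILC2 than in B cells. Allowing no marker of a lineage outside the cell's family left 1317 placed cells and 1 class with 50 cells in every sample, so the ratios between classes could not be computed. The number of genes with the same highest class in every sample was then 2, a count set by which classes remained. Leaving out each sample in turn changed none of these counts by over 1.5 times. Without sample 2, however, S100a8 met the 2-fold rule in monocytes against macrophages, at 3.47, 2.71 and 7.08 in samples 1, 3 and 4. S100a11 then met it in ILC2 against B cells, at 2.08, 2.65 and 2.74. A limit of 0.3 on the other lineage's score and the split of monocytes by Retnlg were chosen after seeing the data. Classes were compared as ratios within each sample, which keeps their pairing. No paired test over the 4 samples was run, since the samples have no group. Counting depth limited S100a1 most, at under 12 CPM in lymphoid classes.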
